A study of Homo sapiens with 10 samples.

Results

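The clustered histone genes encode the core histones H2A, H2B, H3 and H4 and the linker histone H1 from gene clusters on human chromosomes 6 and 1 and a lone gene on chromosome 12. All genes whose symbol in the files begins with HIST1H, HIST2H, HIST3H or HIST4H were taken, which gave 90 of 57955 genes. The 39 of them with at least 20 raw counts in any of the 10 libraries are described here, 24 on chromosome 6, 14 on chromosome 1 and 1 on chromosome 12. Of these 39, 34 are annotated as protein-coding and 5 as pseudogenes. Among the described genes HIST1H1D had the lowest maximum, 20.3 raw counts, and HIST1H3C, the next gene outside, reached 15.9 in its highest library. Of the 51 genes left out, 10 were at 0 in every library. The family was chosen by its values in resistant against sensitive lines, where HIST2H2BE and genes of the chromosome 6 cluster were higher, so its fold changes and calls in that comparison describe what it was chosen by and test nothing about it.

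Core histones form the octamer around which DNA is wound, with pairs of H2A-H2B and H3-H4, and H1 binds the linker DNA between nucleosomes. Most clustered genes are made in S phase, when new chromatin has to be packaged, and their mRNAs end in a short stem-loop that is bound by SLBP in place of a poly(A) tail. Several of them can also be read through to a downstream poly(A) site, and such tailed histone mRNAs are known from differentiated or slowly dividing cells. Replacement histones such as H3.3 and H2A.Z are made from genes outside the clusters, with ordinary poly(A) tails, throughout the cell cycle. The libraries were made with oligo-dT beads, so what was counted is histone RNA that the beads held, not the whole of it.

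The study compared melanoma cell lines sensitive to encorafenib, a BRAF inhibitor, and binimetinib, a MEK inhibitor, with the resistant line (E+BRes) that was derived from each. The lines were WM983A, WM278 and WM902B, from primary tumours, and WM983B and WM1617, from metastases. All carry BRAF V600E, WM983A and WM983B come from the same patient, and so do WM278 and WM1617. Resistant lines were selected by raising the drug combination from 1 nM to 200 nM during 3 to 5 months, and their medium then held 200 nM, so acquired resistance and the presence of drug cannot be told apart. Each line gave 1 library per state, so the lines serve as the replicates of a state and a difference within a line has no replicate check. Where 5 values follow each other below, the lines stand in the order WM983A, WM983B, WM278, WM1617, WM902B.

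The libraries held 13693922 to 18033247 counts, at which 3 counts, taken as the floor of detection, are 0.166 to 0.219 CPM (counts scaled to the same total in every library). SOX10, a melanocyte lineage regulator, stood at 4595 to 5150 normalized counts (raw counts divided by a size factor per library) in the 5 sensitive libraries. It was at 93.6 in resistant WM983A, 186 in resistant WM983B and 9.86 in resistant WM902B, and at 4046 and 5084 in resistant WM278 and WM1617. The summed level of all 8 lineage markers was 6540.1 to 67406 in sensitive and 1299 to 66651 in resistant libraries, and the low sensitive value was that of WM278. The 10 markers of blood, endothelium and epithelium summed to 12.6 to 59.7 in sensitive and 17.9 to 178 in resistant libraries, with HBB at 0 in all of them and PTPRC at 5.33 or less. EPCAM had 161 normalized counts in resistant WM983A and CD14 had 75.1 in resistant WM983B, and the part of such cells in the histone values was not tested.

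The stem-loop that defines a replication-dependent histone mRNA was searched in the annotated transcripts, within 100 bases after the stop codon. It was found in 33 of the 34 described coding genes and in 6 of 19536 other coding genes (0.0307%). HIST1H2AG was the exception. The sequences below show the stem-loop of the 3 genes by which the family was proposed, of the H4 gene with the highest level per kilobase in the resistant libraries and of a gene that was lower in 3 resistant lines, in capitals, with up to 5 bases on each side as annotated (GRCh38).
HIST2H2BE, chr1:149886188-149886203, minus strand: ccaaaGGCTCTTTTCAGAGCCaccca
HIST1H1C, chr6:26055744-26055759, minus strand: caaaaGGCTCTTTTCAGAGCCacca
HIST1H2BD, chr6:26158587-26158602, plus strand: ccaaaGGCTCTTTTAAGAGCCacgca
HIST1H4I, chr6:27139654-27139669, plus strand: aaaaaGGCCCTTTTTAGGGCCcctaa
HIST1H2BH, chr6:26252055-26252070, plus strand: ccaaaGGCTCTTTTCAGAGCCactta
The 16 capital bases were the same in HIST2H2BE, HIST1H1C and HIST1H2BH. The part of the stem-loop in the levels of these genes was not tested.

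Promoters were taken from RefSeq (GRCh38.p14), from 250 bases before to 50 bases after the start of each gene, and 33 of the 39 genes were matched. The TATA box TATAAA was present in 23 of them on either strand, against 11.95% of all 27305 promoters, and CCAAT in 26, against 35.7%. The octamer ATTTGCAT was present in 13, against 1.80% of all promoters, and these were 9 of 11 H2B and 4 of 7 H2A genes. These 4 H2A genes start 218 to 247 bases from described H2B genes on the opposite strand. Both windows of such a pair cover much the same bases, so these octamers count for both genes, as can TATAAA and CCAAT. Near-identical copies such as HIST2H2AA3 and HIST2H2AA4 were also counted as separate promoters. The H1 box AAACACA was present in 6 of the 33 (5.76% of all promoters), among them all 3 H1 genes. The 250 bases before the start are printed for the 3 proposing genes and for HIST1H2BH, with these 4 motifs in capitals on either strand, and adjoining or overlapping matches run together.
HIST2H2BE, chr1:149886683-149886932, minus strand: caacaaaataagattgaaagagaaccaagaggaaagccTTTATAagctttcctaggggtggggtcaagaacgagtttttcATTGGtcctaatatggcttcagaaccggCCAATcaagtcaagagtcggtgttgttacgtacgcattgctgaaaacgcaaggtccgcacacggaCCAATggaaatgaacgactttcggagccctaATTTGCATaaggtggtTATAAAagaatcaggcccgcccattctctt
HIST1H1C, chr6:26056471-26056720, minus strand: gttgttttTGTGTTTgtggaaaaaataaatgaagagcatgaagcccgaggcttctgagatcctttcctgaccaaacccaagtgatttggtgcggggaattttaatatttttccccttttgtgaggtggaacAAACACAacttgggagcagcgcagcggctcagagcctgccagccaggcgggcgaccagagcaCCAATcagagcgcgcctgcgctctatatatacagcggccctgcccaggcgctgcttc
HIST1H2BD, chr6:26157871-26158120, plus strand: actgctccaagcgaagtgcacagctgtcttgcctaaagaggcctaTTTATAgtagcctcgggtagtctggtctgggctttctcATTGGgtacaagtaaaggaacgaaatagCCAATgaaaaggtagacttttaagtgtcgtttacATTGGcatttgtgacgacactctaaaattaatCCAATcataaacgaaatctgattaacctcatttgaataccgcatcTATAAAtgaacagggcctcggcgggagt
HIST1H2BH, chr6:26251364-26251613, plus strand: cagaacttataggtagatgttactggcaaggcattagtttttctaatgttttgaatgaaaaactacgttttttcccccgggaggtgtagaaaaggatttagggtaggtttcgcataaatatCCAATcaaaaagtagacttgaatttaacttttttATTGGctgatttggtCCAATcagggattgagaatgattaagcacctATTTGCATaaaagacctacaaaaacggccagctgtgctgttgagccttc
HIST2H2BE and HIST1H2BH both hold the octamer and HIST1H2BD does not.

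The summed level of the 39 genes was alike in the sensitive lines and differed widely between the resistant ones. In CPM it was 54.5, 66.4, 53.7, 50.1 and 73.0 in the sensitive libraries, a mean of 59.5 ± 9.73 (SD, n = 5). In the resistant libraries it was 325, 205, 90.7, 49.8 and 268, a mean of 188 ± 116 (SD, n = 5). The ratio of both states was thus largest in WM983A (5.96), followed by WM902B (3.67), WM983B (3.09) and WM278 (1.69), while WM1617 had 0.995. The lines with the 3 largest ratios are those whose resistant libraries had little SOX10, whose part in these values was not tested. In bulk RNA, fewer cells with the RNA and less of it per cell cannot be told apart.

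**Figure D1:**
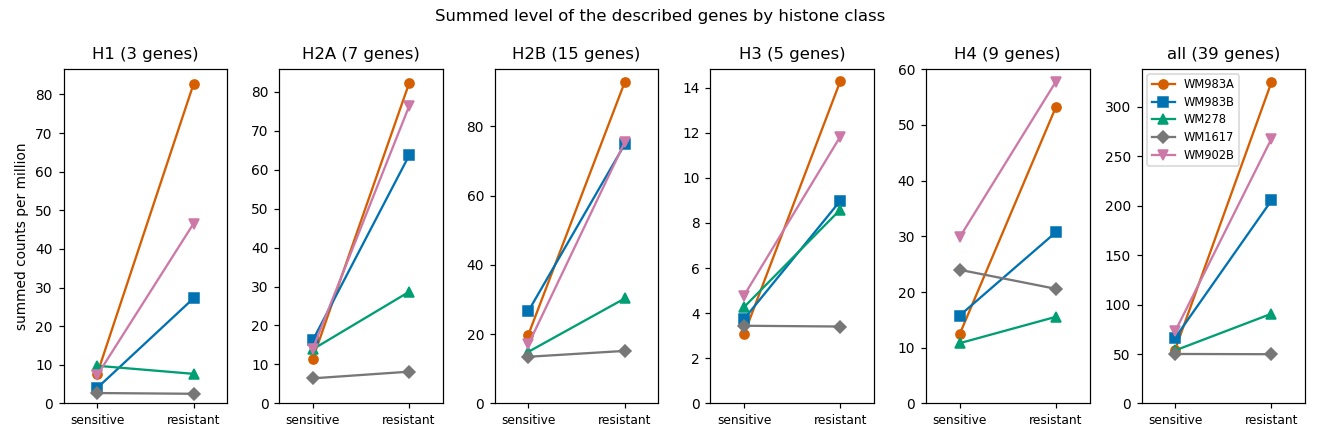
Summed CPM (y axes, linear, starting at 0) of the described genes of each histone class and of all 39, in the sensitive and resistant library of each line (x axis); each point is 1 library and lines join both states of a cell line. The totals lie between 50.1 and 73.0 in sensitive and between 49.8 and 325 in resistant libraries, with WM1617 flat.

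All 5 histone classes were higher in resistant WM983A, WM983B and WM902B. H1 had the widest span, with 2.70 to 9.76 CPM in sensitive and 2.51 to 82.7 in resistant libraries. The H1 sum was 10.7-fold higher in resistant WM983A, 6.77-fold in WM983B and 6.38-fold in WM902B, but 0.786-fold in WM278. H2A ran from 6.44 to 16.2 CPM in sensitive and from 8.15 to 82.1 in resistant libraries, and H2B from 13.5 to 26.7 and from 15.2 to 92.7. The H4 sum was 4.29-fold higher in resistant WM983A, 1.95-fold in WM983B and 1.94-fold in WM902B. H3 had 3.07 to 4.78 CPM in sensitive and 3.41 to 14.3 in resistant libraries.

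Counted gene by gene, the resistant library of WM983A was at least 2-fold higher for 26 of the 39 genes, against 19.5% of the 19666 genes with at least 20 counts in any library. For WM983B it was 20 genes (18.9% of all), for WM278 13 (13.4%), for WM1617 6 (3.69%) and for WM902B 29 (17.3%). At least 2-fold lower were 6, 3, 6, 3 and 1 genes, against 21%, 11.8%, 8.77%, 5.87% and 14.1% of all. The median log2 ratio (with 1 normalized count added to both libraries) came to 2.40, 1.00, 0.66, -0.05 and 1.52. Over all 19666 genes the medians were between -0.01 and 0.01. In WM983A, WM983B and WM902B together, 14 of the 39 genes were at least 2-fold higher in each line (3.83% of all genes), and 7 of these were so in WM278 as well. In at least 4 of the 5 lines 9 genes were 2-fold higher (2.16% of all), and 0 in all 5. Since the family was proposed on this difference, the counts describe it and support nothing.

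**Figure D2:**
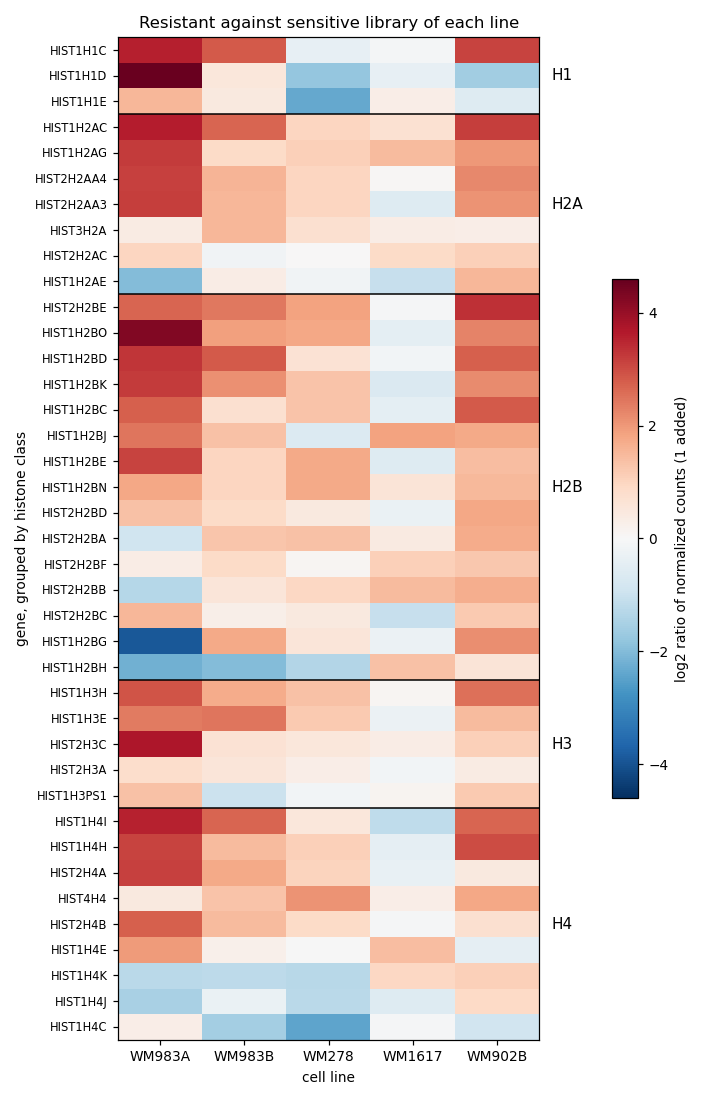
Colours give log2 ratios, resistant over sensitive library (1 normalized count added to both), for the 39 genes, in rows by histone class, and the 5 lines, in columns; red is higher in the resistant library. Most rows are red in WM983A, WM983B and WM902B, and the column of WM1617, with a median of -0.05, is pale.

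In edgeR's quasi-likelihood fit of 5 resistant against 5 sensitive libraries, 31 of the 39 genes passed the filter on low counts. Of these, 16 met the criterion for a call (unadjusted p of at most 0.05 and at least a 2-fold difference), all higher in the resistant libraries. Of the 17288 genes tested, 3.53% were called higher by this criterion and 0.885% lower. The median log2 fold change was 1.13 over the 31 genes and 0.03 over all genes tested. After Benjamini-Hochberg adjustment 0 genes of the series passed in edgeR's test (the smallest adjusted p was 0.630), while 1235 had an unadjusted p of at most 0.05, and limma voom called 0 after adjustment. DESeq2 called 106, which included HIST1H2AC, HIST1H2BD and HIST2H2BE. With 1 line left out 9 (without WM983A) to 17 genes of the family were called. Over all genes 419 to 1493 were then called in either direction, against 763 with all lines. With limma voom 8 genes of the family were called. With at least 10 counts required in every library 7 were called, but fewer genes were tested there. The lines are the replicates and 4 of them come from 2 patients, so p-values measure the spread between these lines. The direction of these calls was fixed by the choice of the family, and nothing is read from their number. Only 13 of the 31 genes reached the filter's level in all sensitive libraries, and 9 of these were called, against 7 of the other 18.

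H2B is the largest class, with 15 described genes, 11 of them tested and 7 called (3.53% of all genes were called higher). The 15 include pseudogenes, and the pseudogene HIST2H2BD is among the 7 called. For 100% of its stretches of 75 bases, the read length, the same sequence occurs in another gene. HIST2H2BE (chr1:149884459-149886682, minus strand, 1 exon), an H2B gene with an annotated 3′ UTR of 1801 bases, had 19.6, 29.6, 22.8, 21.4 and 19.2 normalized counts in the sensitive libraries. In the resistant libraries it had 131, 162, 84.8, 20.6 and 207. Resistant WM1617 lay within the sensitive range and the other 4 resistant libraries above it. The log2 fold change was 2.45 (SE 0.53), and the largest ratio within a line was 10.8-fold, in WM902B.

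HIST1H2BD (chr6:26158122-26171349, plus strand), another H2B gene, had 25.9, 31.3, 25.8, 28.9 and 32.8 normalized counts in the sensitive libraries. The resistant libraries had 262, 228, 41.5, 26.5 and 224. The sensitive values were the most even of the 3 proposing genes (SD 3.13 around a mean of 29.0, n = 5), and 3 resistant lines stood far above them, with WM278 at 1.61-fold and WM1617 at 0.916-fold. The log2 fold change was 2.47 (SE 0.62).

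HIST1H2BK (chr6:27146361-27146855, minus strand) had the highest level per kilobase of exon among the H2B genes when both states were averaged, 7.61 ± 1.85 CPM per kilobase in sensitive and 36.4 ± 28.5 in resistant libraries (SD, n = 5), while in the sensitive libraries alone HIST1H2BH was higher at 8.96. Its normalized counts were 63.4, 66.3, 68.4, 34.7 and 53.3 in the sensitive libraries and 602, 290.5, 171, 21.5 and 245 in the resistant ones. WM1617 was the lowest line in both states. For 38.95% of its exon windows of 75 bases, the read length, the same sequence occurs in another gene, so its counts depend in part on how shared reads were assigned.

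HIST1H2BH (chr6:26251614-26252075, plus strand) went the other way in 3 lines. It had 58.2, 117, 62.1, 21.7 and 53.2 normalized counts in the sensitive and 11.9, 28.3, 23.6, 57.5 and 81.3 in the resistant libraries. The resistant library was 4.89-fold lower in WM983A, 4.13-fold in WM983B and 2.63-fold in WM278, and 2.65-fold higher in WM1617. Its log2 fold change of -0.60 (SE 0.56) was the lowest of the 31 genes tested and was not called. HIST1H2BG, also an H2B gene, had 13.7 normalized counts in sensitive and 0 in resistant WM983A, at least 4.12-fold lower against the floor of 3 counts, but 60.7 in resistant WM902B against 13.1 in the sensitive library. HIST1H2BO, another H2B gene that did not pass the filter, had 36.9 and 24.7 normalized counts in resistant WM983A and WM983B and at most 5.96 in the sensitive libraries.

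**Figure D3:**
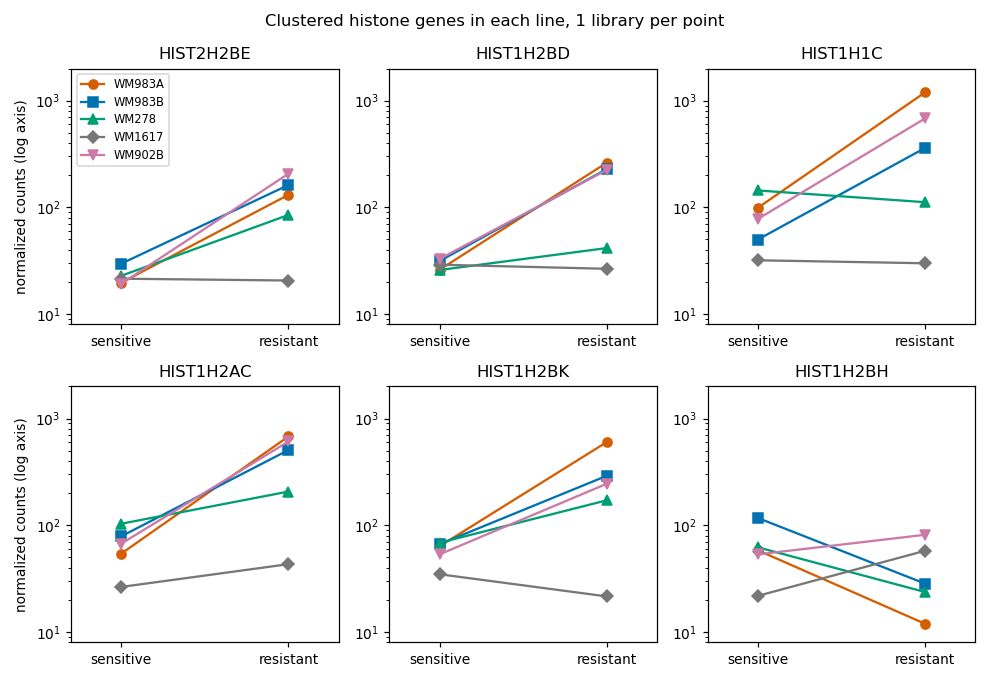
Normalized counts (y axes, log scale) of 6 clustered histone genes in the sensitive and resistant library of each line (x axis); each point is 1 library and lines join both states of a cell line. In the first 5 panels resistant WM983A, WM983B and WM902B lie above all sensitive libraries, and in the panel of HIST1H2BH the line of WM983A falls from 58.2 to 11.9.

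Of the 7 H2A genes, 6 were tested and 4 called, among them the near-identical HIST2H2AA3 and HIST2H2AA4 (3.53% of all genes were called higher). HIST1H2AC (chr6:26124145-26139116, plus strand) had the largest log2 fold change of the family, 2.67 (SE 0.67). Its normalized counts were 54.2, 78.7, 103, 26.4 and 67.2 in the sensitive libraries and 679.7, 507, 207, 43.1 and 610.3 in the resistant libraries. All 5 lines had more in the resistant library, from 1.63-fold in WM1617 to 12.5-fold in WM983A. HIST2H2AA3 and HIST2H2AA4 have the same coding sequence of 390 bases, and 100% and 99.8% of their 75-base windows occur in another gene, so each value depends on how shared reads were split. They had log2 fold changes of 1.93 (SE 0.63) and 2.03 (SE 0.59). HIST2H2AC, which starts 235 bases from HIST2H2BE on the opposite strand, had one of 0.64 (SE 0.51) and was not called.

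Among the H1 genes, which encode linker histones, HIST1H1C (chr6:26055740-26056470, minus strand) held most counts. It had 98.8, 49.8, 144, 31.8 and 77.7 normalized counts in the sensitive libraries and 1195, 359.9, 112, 29.9 and 681 in the resistant ones. The resistant library was 12.1-fold higher in WM983A, 7.23-fold in WM983B and 8.76-fold in WM902B, and below the sensitive one in WM278 (0.776-fold) and WM1617 (0.938-fold). This gene alone took 8.78% of the family's counts in the sensitive and 17.0% in the resistant libraries. The log2 fold change was 2.60 (SE 0.85). HIST1H1E, with 5.35 to 25.0 normalized counts in sensitive and 0.868 to 41.0 in resistant libraries, differed by 0.35 on the log2 scale (SE 0.75). HIST1H1D, at 22.6 in resistant WM983A and at 3.07 or less in the other 4 resistant libraries, did not pass the filter.

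Of the 9 H4 genes, all tested, 3 were called (3.53% of all genes were called higher). HIST1H4I (chr6:27139282-27139678, plus strand) had 21.6, 20.8, 40.4, 19.0 and 14.3 normalized counts in the sensitive and 264, 139, 58.6, 7.99 and 97.3 in the resistant libraries. The other 4 lines were higher and WM1617 was 2.37-fold lower. With the lines as a replicate block its log2 fold change was 1.83 and it was no longer called, against 2.32 (SE 0.73) without the block. HIST1H4H had a log2 fold change of 2.33 (SE 0.67), from 10.7 to 17.1 normalized counts in sensitive and from 7.76 to 154 in resistant libraries. HIST4H4, the lone chromosome 12 gene, was the 1 gene of the 39 whose resistant libraries, at 20.2 to 50.2, all lay above its sensitive ones, at 7.08 to 17.1 (0.422% of all genes did so).

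HIST2H4A and HIST2H4B, which share a coding sequence of 309 bases, differed widely between the sensitive lines. In WM983A and WM983B both also differed more than 2-fold between states. HIST2H4A had 14.02, 18.5 and 10.5 normalized counts in sensitive WM983A, WM983B and WM278, but 137 and 188 in sensitive WM1617 and WM902B. In the resistant libraries it had 131, 64.0, 22.3, 107 and 259. The ratios within lines were 9.32-fold, 3.47-fold, 2.12-fold, 0.784-fold and 1.38-fold. For HIST2H4B the sensitive values were 20.1, 23.8, 18.4, 117 and 160 and the resistant ones 139, 67.8, 34.9, 111 and 267. Of the windows of the 2 genes, 96.2% and 100% occur elsewhere. Neither was called, but HIST2H4B was once the lines entered as a replicate block, at a log2 fold change of 1.18 against 0.90 without it. WM278 and WM1617, from the same patient, stood on opposite sides of the gap between the sensitive lines.

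HIST1H4C (chr6:26103933-26104337, plus strand) was higher in 1 of the 5 resistant lines, WM983A. It had 45.1, 50.6, 9.56, 34.2 and 21.2 normalized counts in sensitive and 56.0, 16.6, 0.942, 32.9 and 10.97 in resistant libraries, with a log2 fold change of -0.43 (SE 0.77). It lies inside the annotated span of HIST1H2BC on the other strand, and 0% of its 75-base windows occur in another gene. HIST1H4J and HIST1H4K, again a pair with 1 coding sequence, differed by -0.32 on the log2 scale (SE 0.50) and -0.16 (SE 0.63). The sign of HIST1H4K depends on the lines used and was positive without WM983B (0.14) or without WM278 (0.06).

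Of the 5 described H3 genes, 3 were tested and HIST1H3E was called (3.53% of all genes were called higher). HIST1H3E had 16.7, 10.9, 35.4, 6.42 and 13.1 normalized counts in the sensitive and 92.1, 64.0, 82.0, 5.17 and 38.1 in the resistant libraries. HIST2H3A and HIST2H3C share their coding sequence. For HIST2H3A, with 2.87 to 30.8 normalized counts in sensitive and 3.77 to 40.1 in resistant libraries, the log2 difference was 0.46 (SE 0.75), and HIST2H3C did not pass the filter. The H3 gene with the highest level per kilobase was the pseudogene HIST1H3PS1, at 2.71 ± 1.19 CPM per kilobase in sensitive and 3.30 ± 1.04 in resistant libraries (SD, n = 5). Its log2 fold change was 0.29 (SE 0.39) and became -0.048 without WM983A.

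The described coding genes fall into 2 groups by their annotated 3′ ends. In 15 genes the longest annotated 3′ UTR ran from 384 to 3575 bases, with the poly(A) signal AATAAA or its ATTAAA form near the end in 11, and in the other 19 it was 42 to 88 bases, with the signal in 1. Of the longer group, 13 were tested and 9 called higher (3.53% of all genes were), with log2 fold changes from 0.70 to 2.67 and a median of 1.58. Of the shorter group, 15 were tested and 6 called higher, from -0.60 to 2.60 with a median of 0.65. The difference between the groups was not tested. All 4 tested genes with a log2 fold change below 0 were in the shorter group. That group also held HIST1H1C, HIST1H2BK and HIST1H4I, which were counted after oligo-dT selection although no tailed end is annotated for them. Whether their counted RNA had a tail was not tested.

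**Figure D4:**
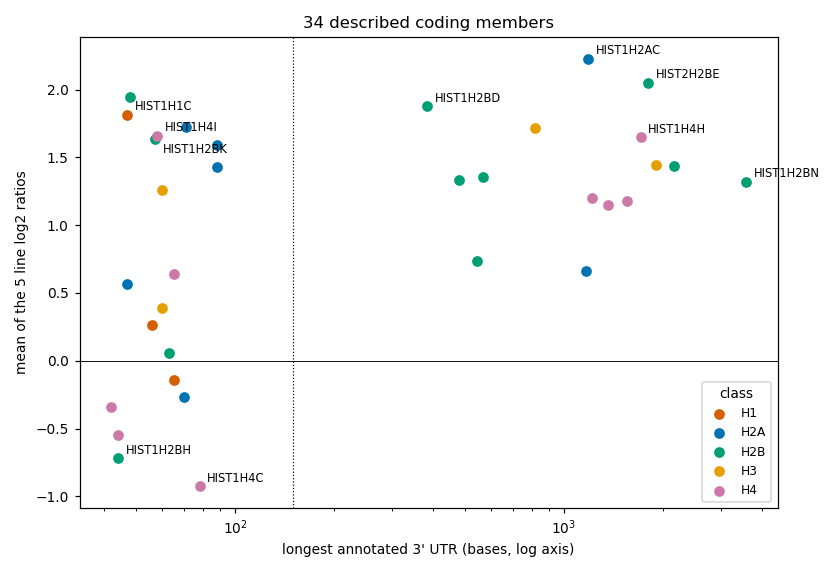
Mean of the 5 line log2 ratios (y axis) against the longest annotated 3′ UTR in bases (x axis, log scale) for the 34 described coding genes, coloured by histone class; the dotted line marks 150 bases. All 15 genes right of the line lie above 0, while those left of it range from -0.93 (HIST1H4C) to 1.95 (HIST1H2BO).

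The 4 described pairs of genes that start close together on opposite strands differed in how alike their values were. The log2 ratios were 2.68, 2.41, 1.85, -0.05 and 3.36 for HIST2H2BE and 0.98, -0.15, 0.01, 0.88 and 1.09 for HIST2H2AC. HIST1H2BC and HIST1H2AC start 218 bases apart, and their log2 ratios were 2.74, 0.73, 1.32, -0.44 and 2.83 for HIST1H2BC and 3.62, 2.67, 0.99, 0.69 and 3.16 for HIST1H2AC. HIST1H2BG and HIST1H2AE were both lower in resistant WM983A (-3.88 and -1.98) and both higher in WM902B (2.13 and 1.52). In WM983A, however, HIST1H2AE had 3 raw counts in the sensitive and 0 in the resistant library. Neither is above the floor of 3 counts, so the size of that ratio is set by the count added. HIST1H2BJ and HIST1H2AG had 2.45, 1.37, -0.64, 1.84 and 1.76 and 3.22, 0.88, 1.10, 1.45 and 1.99, with opposite signs in WM278 alone. With 1 library per state these are values without a test.

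Related gene lists were counted in the same fit to show what moved beside the clustered genes. Of 11 tested replacement histone genes 0 were called in either direction (4.41% of all genes were called), with a median log2 fold change of -0.06, 0 with limma voom and 0 with the block. H3F3B, which encodes H3.3 and had the highest level, was at 9947 to 14266 normalized counts in sensitive and 7576 to 14383 in resistant libraries. The clustered genes made up 1.96% to 3.07% of the counts of both histone groups in the sensitive libraries. In the resistant ones the share was 11.7%, 8.20%, 4.47%, 2.11% and 10.2%.

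Among 18 genes that transcribe or process histone mRNA, 0 were called (4.41% of all genes were), and the median log2 fold change was -0.13. SLBP, which binds the stem-loop, had 1362, 1410.3, 1343, 1558 and 1547 normalized counts in the sensitive libraries and 2191, 968, 913, 1326 and 951 in the resistant ones. It was higher in the resistant library of WM983A and lower in the other 4 lines. Among 17 histone chaperone genes 0 were called, with a median of -0.10. NASP, a chaperone of H3-H4 and H1, had 2062 to 4906 normalized counts in sensitive and 1617 to 5079 in resistant libraries.

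S-phase genes fell where they were called. Of 24 tested, 4 were called lower and 0 higher (0.885% of all genes were called lower), with a median log2 fold change of -0.55. They were RRM2 (-1.12, SE 0.44) and CDC45 (-1.07), CCNE2 (-1.31) and E2F1 (-1.03), which encode a ribonucleotide reductase subunit, a replication helicase component, cyclin E2 and a regulator of S-phase entry. None passed adjustment over all genes in edgeR's test, and without WM983B 0 and without WM902B 1 of the list were called. Within lines, the median log2 ratio of the 24 genes was -1.13 in WM983B, -1.13 in WM278 and -1.07 in WM902B, and 0.05 in WM983A and 0.02 in WM1617. All 4 called genes were also at least 2-fold lower in resistant WM983A, where the list's median was near 0. The part of proliferation in the histone values was not tested.

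Carry-over of RNA without a tail was looked at with 12 such RNAs, of which 5 had at least 20 counts in any library. Of these, 4 were tested and 0 called, against 4.41% of all genes called in either direction. RN7SL2, the most abundant, had 2200.5, 2238, 1632, 1083 and 2658 normalized counts in the sensitive libraries and 2125, 791, 352, 2102 and 1503 in the resistant ones. It was lower in resistant WM983B, WM278 and WM902B, slightly lower in WM983A and higher in WM1617. The median log2 ratio of the 5 RNAs was 0.58, -1.63, -0.38, 0.96 and -0.98 over the lines. In WM983A, RN7SK had 7.86 normalized counts in the sensitive and 53.3 in the resistant library and RMRP 21.6 and 113. Both also rose in WM1617, RN7SK from 3.21, near the floor of 3 counts, to 20.3 and RMRP from 9.63 to 50.9. The part of such carry-over in the histone values was not tested.

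**Figure D5:**
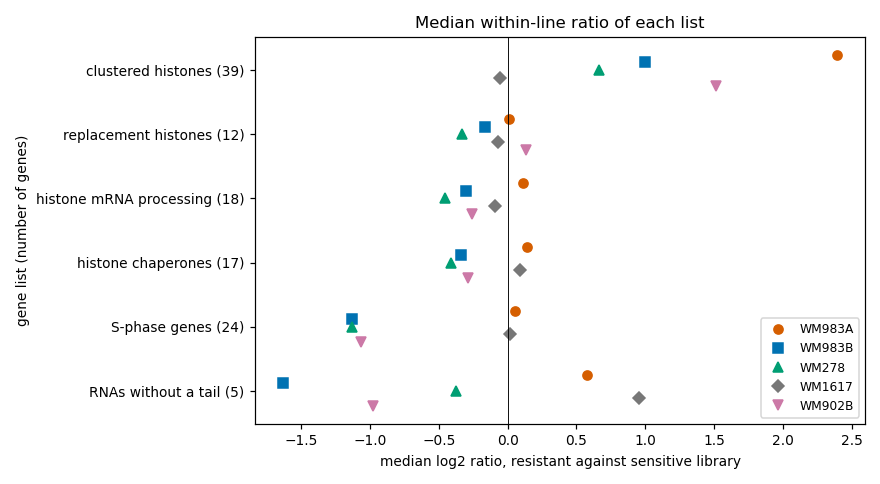
Median log2 ratio of resistant to sensitive library (x axis) for the clustered histone genes and 5 related gene lists (y axis, with the number of genes having at least 20 counts in any library), 1 point per cell line. The clustered histones lie right of 0 in 4 lines, from 0.66 to 2.40, while the replacement histones stay between -0.33 and 0.14 in all 5.

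The comparison by tumour origin was not itself used to propose the family, and it was run within each state. In the resistant state it draws on the same resistant values by which the family was chosen. There it describes the family and tests nothing about it. In the sensitive lines, 0 of the 31 tested genes were called between the 2 metastatic and 3 primary lines in edgeR's quasi-likelihood test, against 0.648% of all genes called higher, 0.694% lower and 1.34% in either direction, and 0 had an unadjusted p of at most 0.05. DESeq2 and limma voom also called 0. The log2 fold changes ran from -1.37 (SE 1.12) for HIST1H1C to 1.25 (SE 0.68) for HIST1H2BC, and 15 of 31 were below 0. Without WM1617, so that WM983B alone stood for metastatic origin, that of HIST1H2BC was 1.60. HIST2H2BE averaged 25.5 normalized counts in metastatic and 20.5 in primary sensitive lines, a difference of 0.32 on the log2 scale (SE 0.78, edgeR adjusted p = 0.99991).

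In the resistant lines, 29 of the 31 genes had a log2 fold change below 0 for metastatic against primary origin, with a median log2 fold change of -0.73 against -0.03 over all genes tested, and 0 were called in edgeR's test, against 2.2% of all genes called higher, 1.74% lower and 3.94% in either direction, with 0 at an unadjusted p of at most 0.05. The lowest was HIST1H4H, with a mean of 25.3 normalized counts in metastatic and 93.2 in primary resistant lines (log2 difference -1.90, SE 0.88, edgeR adjusted p = 0.9994 over all genes). DESeq2 called it at an unadjusted p of 0.0359 and limma voom called 0. HIST1H1C averaged 195 in metastatic and 663 in primary resistant lines (-1.78, SE 1.13), HIST1H2BD 127 and 176 (-0.48, SE 0.94) and HIST2H2BE 91.2 and 141 (-0.63, SE 0.78). The pair of metastatic lines is WM983B, where the family was high, and WM1617, where it was flat. Without WM983B, so that WM1617 alone stood for metastatic origin, 10 genes were called lower, from HIST1H1C (-4.46) to HIST1H2BC (-2.10), and without WM278, 2 were. The difference between states in the effect of origin was called for 0 of the 31 genes in edgeR's test. In that test the smallest unadjusted p was 0.0664, for HIST1H2BC, and the smallest adjusted p 0.99995. The fits by origin had no term for line or patient, so the pairing of libraries by line and of lines by patient was not used. Their SE and p leave that pairing out.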

How the data were processed

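RNA of 10 melanoma cell line libraries was read single-end over 75 cycles after oligo-dT selection. Per the submitters' processing notes and the study's methods, the authors aligned reads to GRCh38 with HISAT2, quantified genes in StrandNGS and normalized with the DESeq algorithm. Tool versions, gene annotation, strand setting and the treatment of reads shared by several genes are not given in the sources used here. The authors deposited expected counts per gene, which include fractions (24.1% of those above 0 are whole), and log2 values, which are ratios of each resistant library to the sensitive one of its line. In sensitive WM983B 455 expected counts, 3 of them of clustered histone genes, had been turned into dates and were recovered from the log2 values to within 0.006 counts.

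Counts were rounded for edgeR 4.0.16 (filterByExpr, TMM, quasi-likelihood test), DESeq2 1.42.0 and limma 3.58.1 in R 4.3.3, and all tests are two-sided with Benjamini-Hochberg adjustment over all genes kept. A gene was called at a fold change of at least 2 and an unadjusted p of at most 0.05. The study gives the same cutoffs of fold change and p and names Benjamini-Hochberg correction, without saying whether that p was adjusted. Within a line, normalized counts with 1 added were compared. Positions come from GENCODE release 44 (GRCh38) by Ensembl identifier, 7 of 90 by older symbols. Steps were tested on simulated data. Sensitive cells of each line were the source of its resistant cells, so the libraries are paired by line. After subtracting group means, the correlation across genes between both libraries of a line was -0.06 in WM983A and 0.38 to 0.67 in the other 4, with a mean of 0.44 against -0.11 between different lines.

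The genes and lists were chosen with earlier results of these data known. Named are the 3 proposing genes, the 8 largest and 8 smallest log2 fold changes among tested members, the member of each class with the highest level per kilobase over both states, members sharing a coding sequence, the 3 widest ranges over lines, and of each list the called genes and up to 4 with the highest level. SOX10, SLBP, NASP, HIST4H4, HIST1H3E, HIST1H2BC, HIST1H2AE, HIST2H2BD, HIST1H2BJ, HIST1H2AG, RN7SK, RMRP, EPCAM, CD14, HBB and PTPRC were named after their values were seen.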

Additional observations from a re-analysis of the deposited data

Results flagged for a closer look

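Outlying libraries were looked for in 46 groups of 5 libraries, each gene named by rule in each state, on log2 normalized counts with 1 added. A library stood apart when its gap to the nearest of the others was over 0.71 of the group's range. Chance alone gives about 1 in 20 such groups, and 2 were found. HIST1H4K had 5.03 normalized counts in sensitive WM1617, against 21.4 to 37.0 in the other 4 sensitive libraries. HIST1H2BG had 2.87 in sensitive WM278, against 9.18 to 13.7 in the others. Both values are near the floor of 3 counts, and HIST1H4K shares 92.0% of its 75-base windows with another gene.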

How the results depend on the processing

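The log2 fold changes of the clustered histone genes named by rule kept their direction and side of the criterion in 204 of 218 comparisons with an alternative, 9 lost the call, 1 gained it and 4 reversed. The reversals were HIST1H1E with limma voom (-0.23), HIST1H4K without 1 of the lines (range -0.94 to 0.14, above 0 without WM983B or without WM278) and HIST1H3PS1 (range -0.048 to 0.61, below 0 without WM983A), and the cause was not tested. The 16 genes called higher became 7 with at least 10 counts required in every library, where fewer genes were tested, 8 with limma voom and 15 with DESeq2. With identical copies summed there were 15 calls, because HIST2H2AA3 and HIST2H2AA4, both called, then counted as 1. Leaving out 1 line at a time gave 9 (without WM983A) to 17 (without WM1617). With the lines as a replicate block 15 clustered genes and 957 genes in all were called, HIST1H4I (1.83) and HIST2H2BD (0.97) losing and HIST2H4B (1.18) gaining the call, and the smallest adjusted p in edgeR's test was 0.461. The other 28 of the 31 tested clustered genes kept their call or lack of one under the block.

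Over all genes, the 763 called between states became 2259 without the filter on low counts and 419 (without WM902B) to 1493 (without WM1617) with 1 line left out. The S-phase list had 4 calls, and 0 (without WM983B) to 5 (without WM1617) with 1 line left out, and the RNAs without a tail 0 to 1. By origin in the sensitive lines, 232 genes became 582 without the filter, 388 with DESeq2, 146 with limma voom and 129 (without WM278) to 762 (without WM983B) with 1 line left out, with 0 to 1 clustered genes called higher. By origin in the resistant lines, 681 became 1584 without the filter and 607 to 1292 with 1 line left out, and clustered genes called lower became 1 with DESeq2 and 0 to 10 with 1 line left out. A line left out of an origin comparison can leave a lone metastatic line, which is then assumed to vary like the others.

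Counts within lines moved most where genes were few. With 5 normalized counts added in place of 1, 3 genes were lower in WM983A, 7 higher in WM278, and 3 higher and 0 lower in WM1617. At 1.5-fold in place of 2-fold, 20 were higher in WM278, 10 higher and 7 lower in WM1617 and 3 lower in WM902B. Among genes with at least 50 counts in any library, 16 were higher and 3 lower in WM983A, 3 lower in WM278, 1 lower in WM1617, and 18 higher and 0 lower in WM902B. With 1 library per line and state, and 3 counts equal to 0.166 to 0.219 CPM, differences of the least abundant genes were not detectable at this depth.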

Other observations

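Single replacement histones varied between the lines far more than their list did, and the 2 genes named here were chosen after their values were seen. H1F0, the linker histone of slowly dividing and differentiated cells, had 427, 223, 1694, 3749 and 8.09 normalized counts in the sensitive libraries, in the line order of the report. In the resistant libraries it had 523, 1858, 2347, 4226 and 10.0. WM902B thus had almost none in either state although its clustered H1 genes were 6.38-fold higher in the resistant library. H2AFY2, which encodes a macroH2A variant, had 605 normalized counts in resistant WM983A and at most 54.4 in any other library, and it did not pass the filter.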
